A study of Mus musculus with 9 samples.

Results

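Exercise training under a high fat diet was compared with the same diet without training in the mouse aorta. The comparison takes the 3 arrays labelled high fat diet with exercise (HE) and the 3 labelled high fat diet (HF), 6 of the 9 arrays of the series, and was chosen by the array titles alone. The animals were males of C57BL/6J, an inbred strain known to become obese and insulin resistant on fat-rich food. HF mice ate the high fat diet for 12 weeks, and HE mice had the same diet and 12 weeks of exercise described as 60 min. A normal diet group (ND, 3 arrays) entered the fit for its spread and is given as a reference level. Of the 24 mice of the study 8 were in each group, and no label says which animal gave the RNA of an array. The p-values therefore cover the spread between arrays, which may be technical. All mice were killed with chloral hydrate after an overnight fast, 24 h after the last exercise, and the aorta was frozen. The design text speaks of aortic endothelium, but the labels give aorta as the tissue and describe no step that separates endothelial cells.

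The aorta is built of an inner layer of endothelial cells, a middle layer of smooth muscle with elastic fibres, and an outer layer of connective tissue. A fat-rich diet is known to impair endothelial nitric oxide signalling and insulin action in the vessel, and regular exercise is known to improve both. Heat shock proteins of the Hsp70 family are chaperones that bind unfolded proteins. Their inducible genes, among them Hspa1a, are switched on by heat shock factor 1, which binds heat shock elements in the promoter. Long non-coding RNAs (lncRNAs) are long transcripts without a protein product, and the array carries probes for both kinds of RNA.

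Each array held 91188 probes of 60 bases, and the files pair none with a gene. Probes were placed by their own letters: 724 matched the window around the start of 1 RefSeq gene, or 1 miRNA hairpin, over at least 30 bases without a mismatch. The other probes are given by identifier. A level is the log2 of the processed signal minus the 75th percentile of its array, and a difference is the HE mean minus the HF mean on that scale, so that -1 is 2-fold lower in HE. Tested were the 43946 probes whose signal stood well above background on 3 or more of all 9 arrays. Of these, 0 passed an adjusted p of 0.05 (0%) in limma's test with Benjamini-Hochberg adjustment, and the smallest adjusted p was 0.0713. Without adjustment 5465 (12.4%) had p under 0.05, 2749 of them higher (6.26%) and 2716 lower (6.18%) in HE. After the normexp background correction 12 probes passed the adjusted threshold, 1 higher and 11 lower in HE. Each difference below is therefore given as a value with its standard error and not as a call.

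Probe A_55_P2158314, which had the smallest unadjusted p of all, lies at the start of Hspa1a. It matched bases 4 to 50 after the start of that gene, on the strand opposite to it, at chr17:34972094-34972153 of GRCm38.p6. Hspa1b, the twin gene, has nearly the same letters: 1 of the 47 matched bases differs, and the 300-base windows of the 2 genes differ at 4 bases. A probe of this length can bind transcripts of both copies, so the signal cannot be split between them. A middle stretch of 30 bases of the probe is shown because it holds the base that tells the copies apart, here in capitals, followed by the 250 bases before the start of Hspa1a (chr17:34972157-34972406, minus strand, RefSeq, GRCm38.p6), where capitals mark a heat shock element.
A_55_P2158314, bases 23 to 52: atggaaccagatttgGttctgagtagctgt
Hspa1a, before the start: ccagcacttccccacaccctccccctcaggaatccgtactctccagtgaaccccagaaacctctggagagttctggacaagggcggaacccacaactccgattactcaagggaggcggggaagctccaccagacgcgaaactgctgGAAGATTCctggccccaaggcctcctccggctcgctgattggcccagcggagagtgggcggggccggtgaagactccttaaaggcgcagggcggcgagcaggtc
The element was searched by the letters GAANNTTC and TTCNNGAA, each of which reads the same on both strands. It was found 1 time before the start of Hspa1a, at bases -104 to -97, and 1 time before that of Hspa1b. Of 32851 start windows 12.8% hold such letters before the start, so the match describes the window and is no evidence of binding.

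The other probes shown had the smallest unadjusted p of those with a log2 difference of 1 or more in size and a signal well above background on all HE and HF arrays. They are printed whole, since their letters are the only description the files give of them. These 3 were lower in HE.
A_55_P2068459: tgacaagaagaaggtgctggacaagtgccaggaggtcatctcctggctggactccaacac
A_52_P452689: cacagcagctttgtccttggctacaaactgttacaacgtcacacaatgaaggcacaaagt
mmu_12031_PI428960544: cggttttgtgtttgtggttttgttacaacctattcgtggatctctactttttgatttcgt
The next 3 were higher in HE.
mmu_3381_PI428960544: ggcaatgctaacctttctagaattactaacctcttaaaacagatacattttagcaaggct
A_30_P01024719: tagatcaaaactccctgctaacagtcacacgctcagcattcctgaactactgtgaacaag
mmu_31144_PI428960544: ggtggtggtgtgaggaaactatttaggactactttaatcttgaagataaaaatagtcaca

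The arrays lay on 3 slides. HE replicates 1 and 2 shared slide 2 with HF replicates 2 and 3, HF replicate 1 shared slide 1 with the ND arrays, and HE replicate 3 was on slide 3. The share of probes well above background was 41.1%, 45.7% and 46.5% on the HF arrays and 46.2%, 36.6% and 48.1% on the HE arrays (two-sided exact permutation p = 0.9). No spot was saturated. The E1A spike-ins are RNAs added from outside at labelling, and their probes had a mean level of 3.81, 3.75 and 3.74 on the HE arrays and of 3.38, 3.37 and 3.36 on the HF arrays. That difference of 0.398 had a two-sided exact permutation p of 0.10, the smallest that 3 against 3 arrays allow. The slope of the line that Agilent's software fitted to spike-in signals was 0.84, 0.98 and 0.84 on the HE arrays. On the HF arrays it was 0.82, 0.80 and 0.81 (two-sided exact permutation p = 0.1). How far this slope bears on the differences was not tested. Scaled to these spike-ins in place of the 75th percentile, the median difference over all tested probes was -0.40 and 9596 probes passed the adjusted threshold, 20 higher and 9576 lower. All differences below are thus relative to the bulk of the probes, whose median difference was -0.003. Which scaling tracks the amount of RNA per cell was not tested.

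The Hspa1a probe A_55_P2158314 was lower in HE than in HF, at about the level of mice on normal diet. Its level was 0.75, 0.81 and 0.67 on the HF arrays, -0.66, -0.97 and -0.95 on the HE arrays and -0.90, -0.57 and -0.38 on the ND arrays. All 3 HF arrays stood above the other 6 arrays, and the HE and ND arrays overlapped. The difference was -1.60 ± 0.16 (SE, n = 3 per group), a fold of 3.03, with an adjusted p of 0.0713 in limma's test. Within slide 2 it was -1.55, and between HE replicate 3 and HF replicate 1 on the other slides it was -1.70. The part of the slide in this difference was not tested. With each array left out in turn it ran from -1.70 to -1.55. The normexp background correction gave -0.97. It was run with an offset of 50 added to each signal, which shrinks the log2 differences of dim probes. Leaving aside spike-in scaling and the fit within slide 2, limma's adjusted p ran from 0.0129 to 0.506.

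The strand matters for how the Hspa1a value is read. Labelled cRNA is complementary to the transcript, so by design a probe reads RNA with its own letters, and this probe would read RNA from the strand opposite to Hspa1a. As a check of orientation, the polyadenylation signal AATAAA was found in 4107 and its reverse complement TTTATT in 1035 of the 25000 probes whose names begin with A_55_P, the series this probe belongs to. The letters of transcripts were thus the more frequent in that series, which does not settle a single probe. Whether the signal came from Hspa1a, from Hspa1b or from a transcript of the opposite strand was not tested.

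A_55_P2068459 followed the same order of groups as the Hspa1a probe A_55_P2158314 and was brighter. Over the 9 arrays the 2 probes correlated at 0.978, and both had been picked for a small p. Whether A_55_P2068459 reads the same gene or its twin was not tested, since it was not placed. The level of A_55_P2068459 was 3.75, 3.82 and 3.39 on the HF arrays, 2.22, 2.23 and 2.10 on the HE arrays and 2.39, 2.34 and 2.6 on the ND arrays. The HF arrays were again the 3 highest of the 9, and each HE array lay below each ND array. The difference between HE and HF was -1.47 ± 0.15 (SE), with an adjusted p of 0.0713 in limma's test, and -1.43 after normexp. Within slide 2 it was -1.38 and between the arrays of the other slides -1.64. Over the same settings limma's adjusted p ran from 0.0029 to 0.506.

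mmu_3381_PI428960544 had the smallest unadjusted p among the probes that were higher in HE. Its level was 0.37, 0.15 and 0.26 on the HF arrays and 1.34, 1.62 and 1.40 on the HE arrays. On the ND arrays it was 0.71, 1.0 and 0.86, between the 2 other groups and overlapping neither. The difference was 1.19 ± 0.13 (SE), with an adjusted p of 0.128 in limma's test (0.0188 to 0.591 over the settings). It was 1.28 within slide 2, 1.03 between the arrays of the other slides and 0.83 after normexp. This probe, A_55_P2158314 and A_55_P2068459 were the 3 that passed the adjusted threshold when only probes detected on all arrays were tested, when the prior was trended and robust, and when arrays were weighted.

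**Figure D1:**
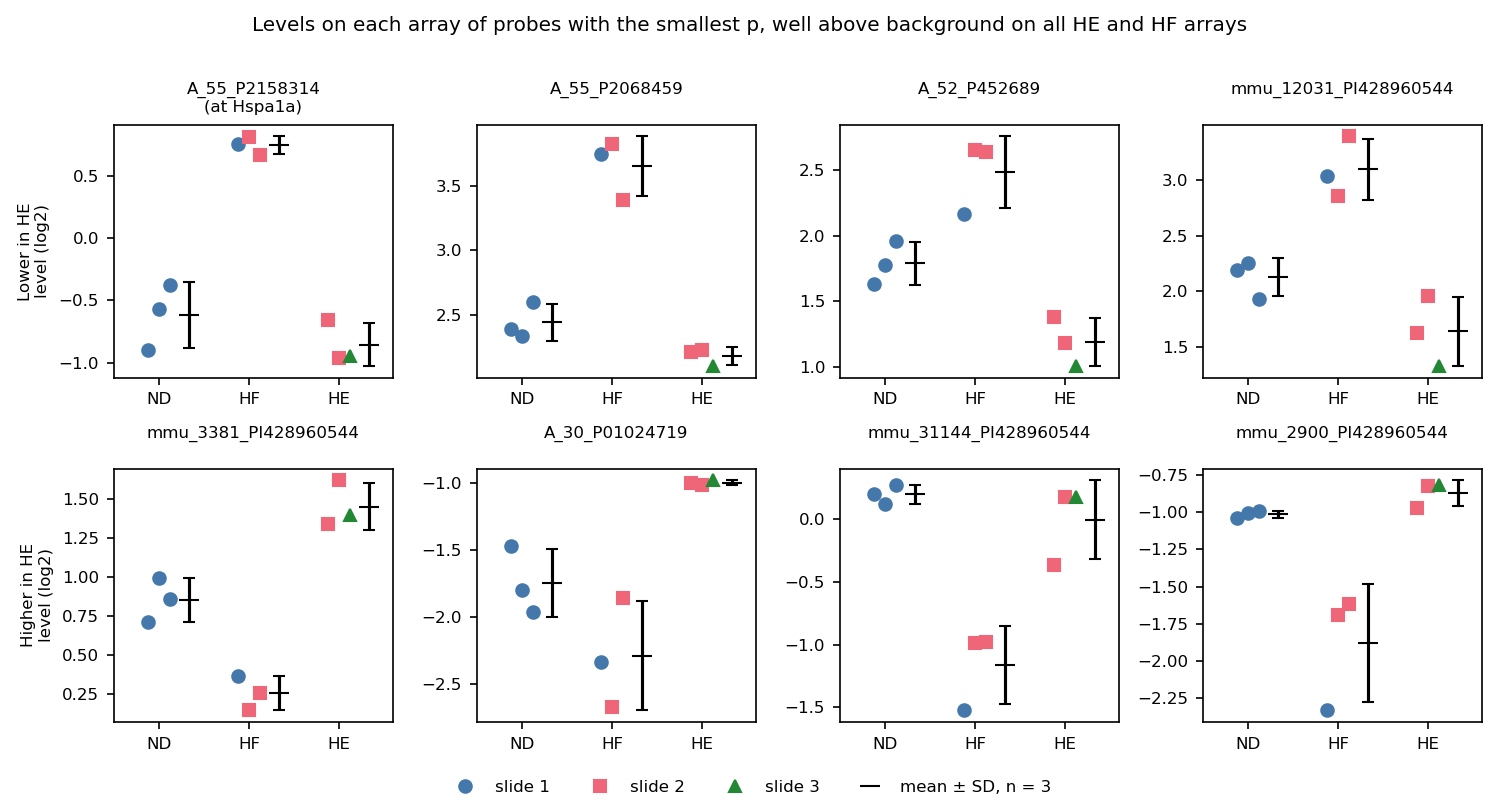
Level on each array (log2 scale, 0 being the 75th percentile of that array) of 8 probes with a small unadjusted p that were well above background on all HE and HF arrays, by group (ND, HF, HE) and slide (marker shape and colour), with the mean ± SD (n = 3). The upper row holds probes lower in HE and the lower row probes higher in HE. In each panel the HE and HF arrays do not overlap, which the choice by small p favours (21.6% of all tested probes did not overlap).

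Of the other probes lower in HE, A_52_P452689 had a level of 2.17, 2.65 and 2.64 on the HF arrays against 1.38, 1.18 and 1.01 on the HE arrays. Its ND arrays, at 1.63, 1.78 and 1.96, lay between the 2 groups without overlap. The difference was -1.30 ± 0.17 (SE), and -1.18 after normexp. The level of mmu_12031_PI428960544 was 3.04, 2.85 and 3.39 in HF and 1.63, 1.96 and 1.33 in HE, a difference of -1.45 ± 0.20 (SE). A_51_P252859 differed by -1.66 ± 0.24 (SE), and mmu_25330_PI428960544 by -1.23 ± 0.19 (SE). All 4 were bright in HF, and each was among the 11 probes that passed as lower in HE after normexp. Their adjusted p in limma's test was 0.221 or 0.222 in the setting of the text.

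The other 4 of the 10 probes named as lower in HE were dim, and their size rests on signals close to background. A_66_P132070 had a difference of -1.74 ± 0.24 (SE), with 2 of 3 HE arrays well above background. The processed signal of A_51_P284946 was 3.87-fold lower in HE, with 3 of 3 HF and 0 of 3 HE arrays well above background. Its HE signals lay above the dimmest signal called well above background on their arrays, so this fold is no lower bound, and the log2 difference ran from -2.15 to -1.67 with an array left out. A bound can be had where a probe's signal lay under that dimmest signal on every array of the dim group. The dimmest signal then takes its place on each array. In this way A_51_P151254, well above background on 1 of 3 HF arrays, was at least 2.48-fold lower in HE. For mmu_26452_PI428960544 only the signal of HE replicate 2 lay under it and was replaced, so the resulting fold of 1.83 is no lower bound. Both folds are of the processed signal. After normexp the log2 differences were smaller, at -0.75 for A_66_P132070, -0.69 for A_51_P284946, -0.22 for mmu_26452_PI428960544 and -0.55 for A_51_P151254.

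Among the 10 probes named as higher in HE, 5 were well above background on all 6 arrays. A_30_P01024719 stood at -1.0, -1.02 and -0.98 on the HE arrays and at -2.34, -2.67 and -1.86 on the HF arrays, a difference of 1.29 ± 0.21 (SE). mmu_31144_PI428960544 had levels of -0.37, 0.18 and 0.18 in HE and -1.52, -0.99 and -0.98 in HF, a difference of 1.16 ± 0.20 (SE). Its ND arrays, at 0.20, 0.12 and 0.27, lay close to the upper HE arrays, so for this probe HF stood apart from both other groups. mmu_2900_PI428960544 (1.01 ± 0.18 SE) and mmu_4703_PI428960544 (1.01 ± 0.19 SE) complete the 5. The remaining higher probes were dim in HF. mmu_9652_PI428960544 differed by 1.67 ± 0.24 (SE) and mmu_4628_PI428960544 by 1.05 ± 0.18 (SE), each with 2 of 3 HF arrays well above background. A_55_P2079064, A_30_P01032466 and mmu_7447_PI428960544 were well above background on 0 of 3 HF arrays. With the dimmest signal called well above background in place of lower signals, their processed signals were 2.52-fold, 2.43-fold and 1.90-fold higher in HE. For each, not every HF signal lay under that dimmest signal, so these folds are no lower bounds. After normexp the 10 higher probes had differences of 0.330 to 0.833. The ND mean lay between the HE and HF means for 9 of the 10 lower and 9 of the 10 higher probes. These probes were chosen for a wide gap between HE and HF, which by itself favours an ND mean inside it. Of the 32176 probes well above background on all 6 arrays, the ND mean lay between for 11185. The HF arrays also serve in both comparisons, so this order is given as a description only.

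Of the 12 probes called after normexp, 5 fell outside the rule for named probes and are named because the count is small. All 5 were lower in HE, in the setting of the text by -1.12 (A_55_P2097391), -0.77 (A_55_P2143075), -1.23 (A_51_P272876), -0.81 (A_55_P2158990) and -1.05 (mmu_20261_PI428960544). For A_55_P2097391 the HF levels were 3.13, 3.08 and 3.28 and the HE levels 2.19, 2.26 and 1.69. Its HE and HF arrays did not overlap, as was the case for the other 4. The choice of these probes by an HE against HF test favours this, and 21.6% of all tested probes did not overlap.

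Since 2 HE and 2 HF arrays share slide 2, the difference there can be set beside that between the remaining arrays, HE replicate 3 and HF replicate 1, whose slides also differ. Over the 32176 probes well above background on all 6 arrays the 2 differences had the same sign for 63.3%, and over probes, which are not independent replicates, their correlation was 0.297. Within slide 2, 34 of these probes were at least 2-fold lower in HE at an unadjusted p under 0.05, and 28 of them (82.4%) were also lower in HE replicate 3 than in HF replicate 1, with a median difference of -0.889. Of 71 that were at least 2-fold higher within slide 2, 50 (70.4%) were also higher in the other arrays, with a median of 0.278. The probes lower on slide 2 thus had a median on the other slides nearer to that on slide 2 (-1.18) than the higher probes had (1.11 on slide 2). The first list stood at median levels of 1.42, 1.30 and 1.47 on the HF arrays and 0.37, 0.22 and 0.74 on the HE arrays. The second stood at 0.18, -0.62 and -0.63 in HF and at 0.15, 0.79 and 0.40 in HE, so that HF replicate 1 and HE replicate 1 had almost the same median. The contrast between the lists was not tested.

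**Figure D2:**
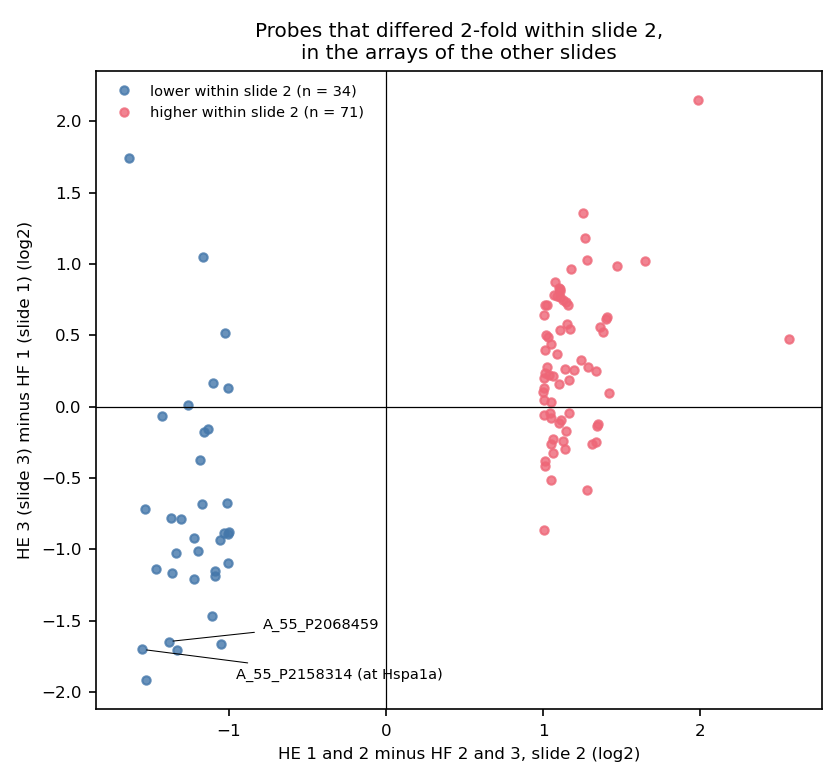
Difference between HE and HF arrays of slide 2 (horizontal axis, log2) and between HE replicate 3 and HF replicate 1 of the other slides (vertical axis, log2), 1 point a probe, for probes well above background on all 6 arrays that differed at least 2-fold within slide 2 at an unadjusted p under 0.05. Of the 34 lower probes 28 lie below 0 on the vertical axis, among them A_55_P2158314 and A_55_P2068459, and of the 71 higher probes 50 lie above 0.

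The 396 placed probes that were tested cover 343 genes, each at the start of the gene or at a miRNA hairpin. At an unadjusted p under 0.05 there were 25 higher and 6 lower in HE, 7.83% of the placed probes against 12.4% of all tested probes. The HE and HF arrays did not overlap for 55 higher and 17 lower placed probes, where 10.1% and 11.5% of all tested probes were higher or lower without overlap (21.6% in either direction). Of the 250 probes at protein-coding genes 17 had p under 0.05 (12 higher), of the 134 at lncRNAs 12 (11 higher) and of the 12 at miRNA hairpins 2, both higher. The placed probes had a median GC content of 51.7% against 43.3% over all tested probes and a median difference of 0.0968 against -0.003. Probes of high GC content were more often higher in HE (below), and the part of base composition in the split of placed probes was not tested. None of the placed probes passed the adjusted threshold, and their adjusted p in limma's test was 0.279 or more apart from that of Hspa1a.

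LOC115490339, a predicted gene, had the next smallest p among placed probes and was read on its own strand across its start (chr6:130939512-130939571). Its level was 2.07, 1.45 and 2.20 in HF and 0.56, 0.65 and 1.15 in HE, a difference of -1.12 ± 0.24 (SE). The arrays did not overlap, and the ND arrays (1.5, 1.84 and 1.39) lay within or near the HF range. A probe before the start of Umps, which makes uridine monophosphate in pyrimidine synthesis, lay on the opposite strand and differed by -0.91 ± 0.29 (SE). Its HE levels were -0.20, -1.25 and -0.22 and its HF levels 0.15, 0.22 and 0.69, so 1 HE array lay far below the others. Without an array at a time the difference ran from -1.09 to -0.57. The other lower probes at p under 0.05 were at 2300003K06Rik (-0.67, 1 of 3 HE arrays well above background), Gm13421 (-0.50) and Gm46340. The Gm46340 probe was well above background on no HE array and 1.53-fold lower in HE with dim HE signals replaced as above. Its signal on HE replicate 3 lay above the dimmest one called well above background, so that fold is no lower bound. Normexp gave a difference of -0.15. The probe matches near copies, so that its gene is uncertain.

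Among the higher placed probes the 2 brightest lay on the strand opposite to their gene and before its start, where another transcript may be read. The probe at Abcb1b, which encodes a drug efflux pump of the P-glycoprotein kind, lies inside the gene model Gm5106 on that model's own strand. Its levels were 6.68, 6.43 and 6.28 in HF, 6.87, 7.27 and 6.95 in HE and 7.25, 7.04 and 7.20 in ND. HF was the lowest of the 3 groups, and its arrays overlapped with neither of the others. The difference between HE and HF was 0.57 ± 0.16 (SE). The probe at Gm7072, whose start letters are nearly shared with Zfp947 and Zfp995, had levels of 5.89, 5.76 and 6.03 in HF and 6.4, 6.79 and 6.33 in HE, a difference of 0.61 ± 0.15 (SE).

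Other higher probes before a protein-coding start, also on the opposite strand, were at Plxna2, a semaphorin receptor, at Capn10, a calpain protease, and at Pitpnm2, a phosphatidylinositol transfer protein. For Plxna2 the levels were 1.32, 1.82 and 1.65 in HF and 2.13, 2.59 and 1.94 in HE, a difference of 0.62 ± 0.20 (SE). For Capn10 they were 0.21, 0.61 and 0.34 in HF and 0.74, 1.25 and 0.96 in HE, a difference of 0.60 ± 0.17 (SE). Each of these sets did not overlap between HE and HF. The difference was 0.47 ± 0.15 (SE) for Pitpnm2 and 0.29 ± 0.12 (SE) for Zkscan17, a zinc finger protein.

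On the gene's own strand the largest difference at a protein-coding gene was that of Exoc7, a subunit of the exocyst, which tethers vesicles to the plasma membrane. The probe lies before the start of Exoc7 and inside Gm26730 of the other strand. It had 0 of 3 HF and 3 of 3 HE arrays well above background, and its processed signal was 2.43-fold higher in HE. That fold is measured against background and is no lower bound, since the log2 difference was 1.11 to 1.52 with an array left out and 0.46 after normexp. Tet1, an enzyme that oxidises 5-methylcytosine, was read across its start with levels of 0.11, -0.11 and -0.33 in HF and 0.42, 0.19 and 0.15 in HE, a difference of 0.37 ± 0.15 (SE). The groups did not overlap, by a gap far smaller than the range within each. Phldb3 (0.43 ± 0.14 SE), Uckl1 (0.40 ± 0.18 SE), Iqcc (0.36 ± 0.16 SE) and Ranbp17, a nuclear transport receptor (0.34 ± 0.15 SE), were read on their own strand before the start. For Iqcc the HE and HF arrays overlapped.

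Of the 11 higher lncRNA probes, 9 were well above background on all HE and HF arrays. A probe before the start of Tug1, a widely expressed lncRNA, had levels of 0.18, 0.17 and 0.03 in HF and 0.41, 0.75 and 0.56 in HE, a difference of 0.45 ± 0.14 (SE). A probe of the opposite strand that shares part of its letters, A_30_P01022792, differed by 0.003 ± 0.19 (SE), so the 2 strands of that site did not show the same value. Snhg17, a host gene of small nucleolar RNAs, was covered on the opposite strand, with 0.42 ± 0.15 (SE). Snhg15, of the same kind, was also covered on the opposite strand. It was well above background on no HF array and 1.85-fold higher in HE with dim HF signals replaced as above. Only on HF replicate 1 did its signal lie under the dimmest one called well above background, so that fold is no lower bound. Normexp gave a difference of 0.43. Gm46961 was likewise dim on all HF arrays, so that its 1.88-fold higher signal in HE is measured against background, and normexp gave 0.32. E130102H24Rik (0.75 ± 0.21 SE), Gm14636 (0.45 ± 0.13 SE), Gm46878 (0.43 ± 0.18 SE), 4833411C07Rik (0.39 ± 0.14 SE), Gm31386 (0.31 ± 0.12 SE), LOC115487949 (0.29 ± 0.13 SE) and Gm35202 (0.28 ± 0.12 SE) complete the higher lncRNA probes. Most of these probes belong to the A_30_P series, in which AATAAA was found in 591 and TTTATT in 469 of 15955 probes. The orientation of that series is therefore less settled than that of A_55_P.

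Both miRNA hairpin probes with p under 0.05 were higher in HE. The probe at Mir6516 lies on the hairpin's strand inside the host gene Snhg20, and had levels of 1.18, 1.40 and 1.06 in HF and 1.62, 1.74 and 1.67 in HE, a difference of 0.46 ± 0.15 (SE). The probe at Mir760 lies on the strand opposite to the hairpin and differed by 0.51 ± 0.17 (SE). A 60-base probe spans most of a hairpin and does not measure the mature miRNA, for which no values are given here.

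**Figure D3:**
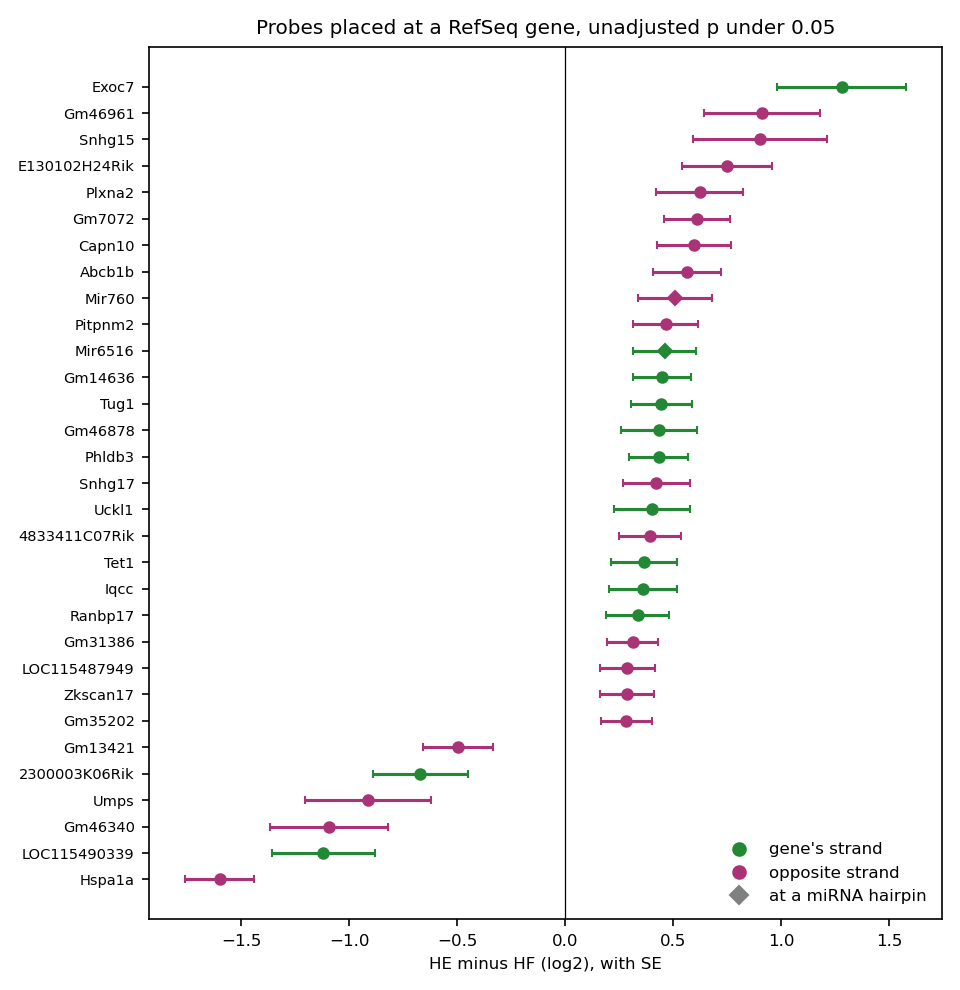
Difference between HE and HF (log2, point) with its standard error (bar) for the 31 placed probes at an unadjusted p under 0.05, by gene and by strand of the probe. The 25 higher probes lie between 0.28 and 1.28, and of the 6 lower ones the probe at Hspa1a lies farthest from 0, at -1.60. The probes at Exoc7, Gm46961, Snhg15 and Gm46340 were well above background on no array of 1 group, so their points are differences from background.

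The rule for placed probes also took probes with a log2 difference of 0.5 or more in size whatever their p, and these show how far single arrays move such values. Hbb-bs, a beta globin that marks red blood cells, had levels of 1.17, 0.66 and 2.26 in HF and 1.93, 2.29 and 2.01 in HE, a difference of 0.71 ± 0.41 (SE, unadjusted p = 0.114 in limma's test). HF replicate 3 stood within the HE range, and the ND arrays ran from 0.51 to 1.59. C920009B18Rik had a difference of -1.41 ± 0.80 (SE), which was -1.99 within slide 2 and -0.25 between the other arrays. Ndufb5, an accessory subunit of respiratory complex I, was covered on the opposite strand and differed by -0.93 ± 0.71 (SE), but by 0.088 within slide 2. Spsb4 differed by 0.85 ± 0.67 (SE) and by -0.17 within slide 2. For Ndufb5 and Spsb4 the direction thus rests on HE replicate 3 and HF replicate 1, and without HF replicate 1 Spsb4 differed by -0.15, without HE replicate 3 Ndufb5 by 0.12. B230307C23Rik (0.59), Sycp1 (0.69), Gm35959 (0.51), Htr6 (0.60), Mir3069 (0.71), Tango2 (0.57) and Mir8120 (0.59) were higher, and Gm52617 (-0.66), Gm36480 (-0.68), Kansl2 (-0.52), Znrd2 (-0.57) and Halr1 (-0.69) lower, all with overlapping arrays. With an array left out, the lowest differences were 0.10 for Gm35959, 0.095 for Htr6, 0.081 for Mir3069, 0.15 for Tango2, 0.086 for Mir8120, 0.20 for Sycp1 and 0.40 for B230307C23Rik. Those nearest to 0 were -0.33 for Gm52617, -0.35 for Gm36480, -0.18 for Kansl2, -0.21 for Halr1 and 0.011 for Znrd2, and -0.23 for C920009B18Rik.

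The pathways that exercise is known for could hardly be read. Of 28 lists of genes (nitric oxide and vascular tone, matrix, inflammation, insulin signalling, antioxidant enzymes, respiratory chain, clock genes, cell type markers and others), 5 had 1 gene each with a placed and tested probe and the others had 0. Those genes were Hspa1a of the heat shock list, Hbb-bs of the red blood cell list, Ndufb5 of the respiratory chain, Etfb, the electron transfer flavoprotein subunit of fatty acid oxidation (0.46 ± 0.29 SE), and Sgk1, a kinase induced by glucocorticoids (0.39 ± 0.20 SE, opposite strand). The levels of Etfb and Sgk1 overlapped between HE and HF. Endothelial, smooth muscle, fibroblast and fat cell markers had 0 placed and tested probes, so the labelled tissue could not be checked and a shift in its cell makeup was not tested. In RNA of whole tissue, fewer cells of a type and less RNA per cell cannot be told apart.

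The differences depended on the base composition of the probe. Of the 7340 tested probes with a GC content of up to 35%, 4.18% were higher and 11.4% lower in HE at an unadjusted p under 0.05. Their median difference was -0.10. Of the 930 with over 55% GC, 11.6% were higher and 0.86% lower, with a median of 0.13. The bins between these followed in order except for that of 45 to 50% GC, and the medians ran the same way within slide 2 and between the other arrays. The median level of tested probes over 50% GC minus that of probes up to 35% GC is a single value per array. It was 1.27, 1.37 and 1.15 in HE and 1.07, 1.17 and 1.13 in HF, with an exact permutation p of 0.2. HE replicate 3 lay within the HF range. The Hspa1a probe has a GC content of 48.3%, and A_55_P2068459 one of 55%. Their bins had median differences of 0.011 and 0.045, and both probes were lower in HE. The part of base composition in the values of these probes was not tested. By level, in 5 bins of equal size, 7.67% of the dimmest probes were higher and 4.12% lower, and of the brightest 5.64% were higher and 8.01% lower.

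**Figure D4:**
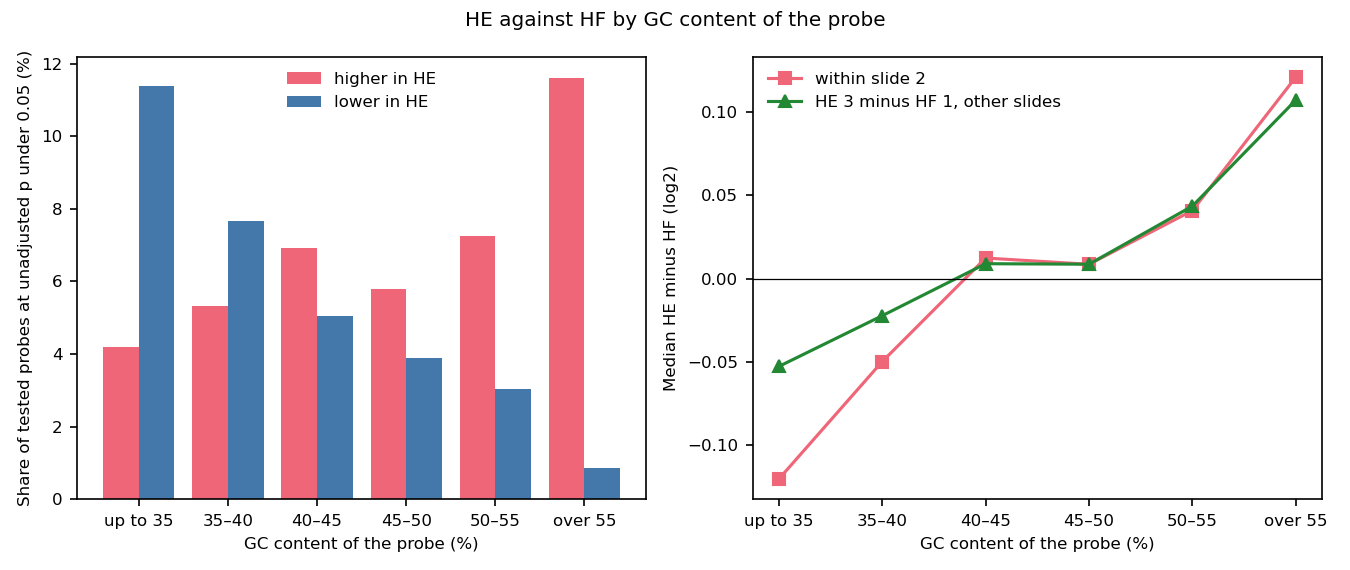
Left, share of tested probes at an unadjusted p under 0.05 that were higher or lower in HE, by GC content of the probe (%). Right, median difference between HE and HF (log2) in the same bins, within slide 2 and between HE replicate 3 and HF replicate 1; both lines lie below 0 up to 40% GC and above 0.1 over 55% GC.

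**Figure D5:**
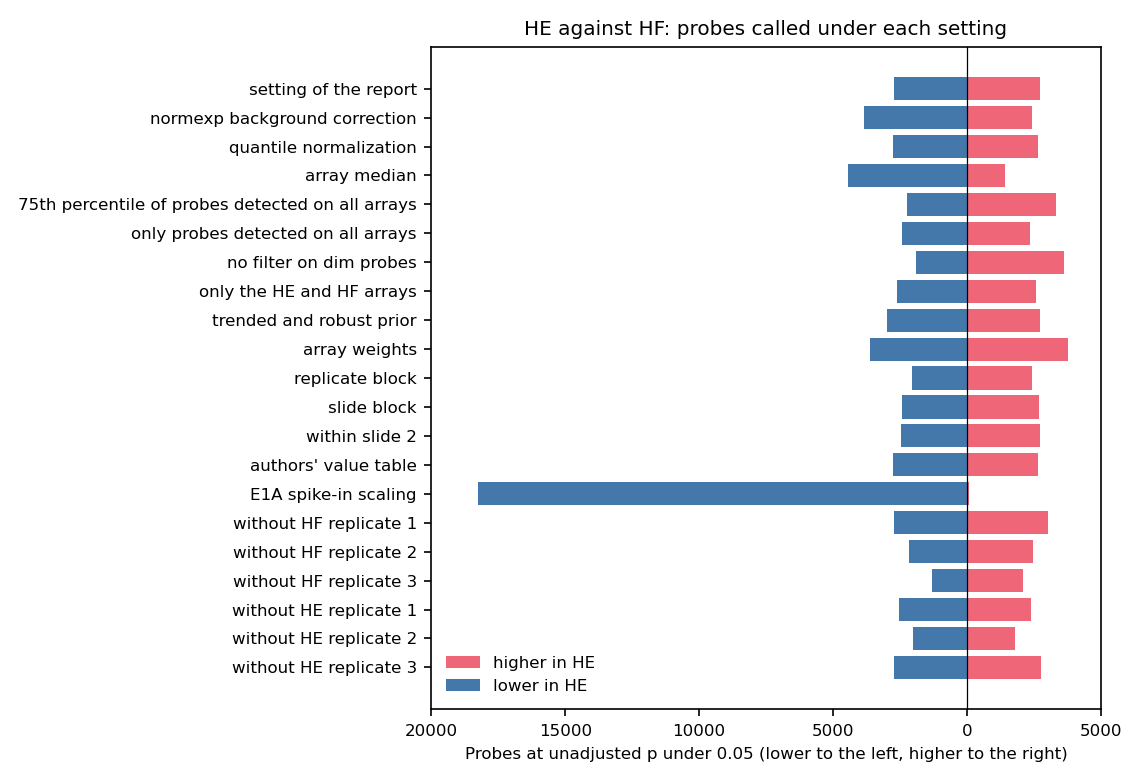
Number of probes at an unadjusted p under 0.05 that were lower (left of 0) and higher (right of 0) in HE under each processing setting. In the setting of the text the numbers were 2716 and 2749, with the array median 4435 and 1440, and with spike-in scaling 18251 and 93.

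The split between higher and lower probes moved with the scaling and with other settings. With each array set to its median, 1440 probes were higher and 4435 lower, and with the 75th percentile over probes detected on all arrays 3328 were higher and 2232 lower. With no filter on dim probes the numbers were 3649 and 1906, and after normexp 2442 and 3828. Quantile normalization left 2651 and 2773, and without HF replicate 3 the numbers were 2089 and 1298. With spike-in scaling 93 were higher and 18251 lower. The 20 probes named for a difference of at least 1 kept their direction under every setting run, spike-in scaling included. Their HE and HF arrays did not overlap, so leaving out arrays could not turn the direction. Nor could the spike-in shift of 0.398, which is smaller than 1. For A_55_P2158314 the difference was -2.00 with spike-in scaling.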

How the data were processed

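Cy3-labelled cRNA of mouse aorta was measured on Agilent arrays of 1 colour, per the labels' protocols. The scanner files the authors deposited come from Agilent Feature Extraction (version 10.7.1.1 in the submitters' processing notes) and hold a linear intensity for each spot. Their processed signal is background-subtracted within the array, per the file headers. The authors also deposited a table of log2 values, which correlated with their own arrays at 0.9954 to 0.9999; its distributions are nearly equal (medians of 4.794), it is not centred by probe, and its tool is not given in the sources used. Its columns left unused number 0.

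Control spots and outlier spots (17 to 29 per array) were left out, and the log2 signals of a probe's spots were averaged and set relative to the array's 75th percentile. limma 3.58.1 in R 4.3.3 fitted all 9 arrays (6 residual and 3.12 prior degrees of freedom), with Benjamini-Hochberg adjustment over 43946 probes. Single values had two-sided exact permutation tests. The number of arrays limits the precision. In simulated data for HE against HF over 43946 probes, 56% of 100 probes changed 2-fold and 94% of 100 changed 4-fold passed. In the same data 10 unchanged probes were called. In the measured data 0 probes passed. There A_51_P151254, with a log2 difference of -2.21, had an adjusted p of 0.222 in limma's test. How far the 56% and 94% hold for the measured arrays was not tested. Probes were placed by exact match of at least 30 bases, on either strand, to 32851 RefSeq start windows of 300 bases (GRCm38.p6) and 1005 hairpins, using Python 3.11.15 and pandas 2.3.3. The search recovered 200 of 200 planted probes and placed 0 of 1000 random ones. Of the 91188 probes 811 had a match and 724 were placed at 1 gene.

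Named are, per direction, the 10 probes of smallest unadjusted p whose log2 difference was 1 or more in size, and of placed probes the 15 per direction with a difference of at least 0.5 and 2 arrays of each group above background. Genes of the lists and placed probes at p under 0.05 were added. Members and lists were chosen with earlier results of these data known. The planned counts over gene lists and the marker checks could not be made, because 23 of 28 lists had no placed and tested gene. Alternatives were normexp with an offset of 50, quantile normalization, other scalings and filters, other priors and weights, slide and replicate blocks, the authors' table and each array left out. The placing, the comparison between slides and the bins by GC content and level were added after the data had been seen.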

Additional observations from a re-analysis of the deposited data

How the results depend on the processing

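The count of probes at an adjusted p under 0.05 was 0 in the setting of the text and with quantile normalization, array median, the 75th percentile of probes detected on all arrays, no filter on dim probes, only the HE and HF arrays, slide block, within slide 2, the authors' table and each array left out (0 to 0). It was 12 after normexp, 3 for only those probes detected on all arrays, 3 with array weights, 3 under the trended and robust prior and 9596 under spike-in scaling. The higher probes at an unadjusted p under 0.05 numbered 1440 with the array median and 93 with spike-in scaling, and 1801 to 3049 with an array left out (lowest without HE replicate 2). The lower ones numbered 4435, 18251 and 1298 to 2734 (lowest without HF replicate 3). Without adjustment 5465 probes had p under 0.05 in limma's test. The cause of these shifts was not tested. Same-numbered HE and HF arrays did not deviate together (correlations of -0.23, -0.03 and -0.21). Deviations within a group are tied by its mean and the slides differed, so these values cannot show whether the numbers pair the arrays. The replicate block left 0 probes past the adjusted threshold and 2435 higher and 2059 lower without adjustment. Of 1336 values of the 68 named probes under other settings, 1278 kept direction and side of the threshold, 42 passed it and 16 turned direction. Of the 42 that passed, 26 did so with spike-in scaling, under which 9596 of all 43946 tested probes passed. Those that turned were Spsb4 (-0.17 with the slide block and within slide 2, -0.15 to 1.36 with an array left out, lowest without HF replicate 1), Ndufb5 (0.088 with the slide block and within slide 2, -1.50 to 0.12 with an array left out, highest without HE replicate 3) and Znrd2 (-0.95 to 0.011 with an array left out, highest without HE replicate 2). With spike-in scaling they were 4833411C07Rik (-0.0048), Gm31386 (-0.085), Gm35202 (-0.12), Tet1 (-0.032), Zkscan17 (-0.11), Ranbp17 (-0.062), Iqcc (-0.039), LOC115487949 (-0.11) and Sgk1 (-0.010). Signal over background limits the dim probes: between 36.6% and 48.1% of probes were well above background on the HE and HF arrays.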
